A study of Homo sapiens with 16 samples.

Results

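The S100 calcium-binding family was examined in LP-1 cells, a human multiple myeloma cell line, with and without overexpressed cIAP2, an inhibitor of apoptosis encoded by BIRC3. The 9 members S100A4, S100A6, S100A8, S100A9, S100A10, S100A11, S100A13, S100A16 and S100P were taken by gene symbol, out of 20499 symbols that the array probes could be given, and 10 probes measured them. The list was chosen by measured values, the difference in S100A6 between the lines (lower in the overexpressing cells). The difference between the lines is therefore described here with no test, except for cell type markers. LP-1-cIAP2-eGFP cells and control (LP-1-eGFP) cells both carried a lentiviral vector with eGFP, the vector of the former also carried cIAP2, and transduced cells had been sorted by flow cytometry. Each line received either no drug or 10 nM bortezomib, a proteasome inhibitor, and was collected after 6 h or 24 h. The 8 conditions had 2 biological replicates each, so 16 one-colour Agilent arrays were analysed, 8 of each line. No second transduction of either vector was analysed, so p-values below measure only the spread between replicates within these lines. RNA was taken in bulk, in which fewer cells of a kind and less RNA per cell cannot be told apart.

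S100 proteins are small proteins with paired EF-hand motifs, and most of them form dimers that change shape when they bind calcium and then attach to a target protein. S100A10 is the exception, since it no longer binds calcium and sits with annexin A2 at the plasma membrane, where the complex binds plasminogen and its activator. S100A6 binds the calcyclin-binding protein, a component of ubiquitin ligase complexes, S100A4 binds non-muscle myosin and is known from motile and metastatic cells, and S100A11 binds annexin A1. Several members are also released from cells and bind receptors such as RAGE. Most of the genes lie in a cluster on the long arm of chromosome 1, a region often gained in myeloma.

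The values are background-corrected spot signals that were quantile normalised and put on the log2 scale, so that a difference of 1 is a 2-fold change. A probe has its own response to its target, and signals were therefore compared between arrays for a gene and never between genes. Each gene is represented by its brightest probe. The arrays differed in quality. The log2 median signal before normalisation lay between 5.73 and 6.64 on 15 arrays and was 3.18 on replicate 1 of LP-1-cIAP2-eGFP treated for 24 h, where 35.5% of gene spots were well above background. The replicates of that condition differed with an SD of 1.48 across probes, against 0.495 to 0.773 in the other 7 conditions. The probe of BIRC3 reads, per the study's methods, the untranslated end of the endogenous transcript and so does not check the overexpression. Its log2 signal was 11.92 and 12.13 in untreated LP-1-cIAP2-eGFP at 6 h and 13.57 and 13.67 in the control.

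The arrays carried the markers of plasma cells, the normal counterpart of myeloma. Of 9 plasma cell markers, 7 (CD38, IRF4, MZB1, POU2AF1, SDC1, TNFRSF17 and XBP1) were well above background on all 16 arrays. No array had a signal well above background for the B cell genes MS4A1 and PAX5, the monocyte genes CSF1R and FCGR3A, the epithelial cadherin CDH1 or the fibroblast collagen COL1A2. Other genes of these lists did have a signal, with the keratins KRT8 and KRT18 and the granulocyte receptor gene CSF3R above background on all 16 arrays, FCN1 on 15, CD14 on 13 and COL1A1 on 10. The T cell genes CD2, CD3D and CD3E were above background on 15, 12 and 10 arrays.

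5 of the 9 members were well above background on every array, namely S100A4, S100A6, S100A10, S100A11 and S100A13. S100P was above background on all 8 control arrays but on only 4 of those from LP-1-cIAP2-eGFP. The myeloid alarmins were at the edge of detection, with S100A8 above background on 10 of 16 arrays and its dimer partner S100A9 on 2. S100A16 was above background on 3 arrays. Testing required that a probe exceeded background in both replicates of 1 or more conditions, which 8 of the 9 members met and S100A9 did not.

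The promoters of the members in the RefSeq table (assembly GRCh38.p14, 250 bases before to 50 after a start) were searched on both strands for motifs of factors known to act when the proteasome is inhibited, and the windows around the matches are printed to show which members carry such letters near their start. The κB consensus, the motif of NF-κB, present in 11.3% of all 34796 promoters in the table, and the heat shock element GAANNTTC, in 6.79%, were not found in a promoter of any of the 9 members. The antioxidant element TGACNNNGC, present in 13.3% of promoters, was found once each for S100A13 and S100A16. The ATF4 core TGATGNAA, present in 3.63%, was found once, for S100P. These matches all read on the opposite strand, and the motif is in capitals in the windows given here, 5′ to 3′ in the direction of the gene.
S100A13 (chr1:153634586-153634611, minus strand): tcaaaGCCCTGTCAagacttccactt
S100A16 (chr1:153613128-153613153, minus strand): accccaggGCCAAGTCAagaaggagc
S100P (chr4:6693746-6693771, plus strand): aacgatgcaTTTCATCAgaactgagc
The match of S100A13 begins 245 bases before 1 of its 3 listed starts, that of S100A16 8 bases before 1 of 2, and that of S100P 123 bases before its start. S100A4, S100A6, S100A10 and S100A11 held no match to these letters, and a match is a description of the sequence, not a site.

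In the comparison of the lines, the family split into genes that were lower in LP-1-cIAP2-eGFP, genes that were higher, S100A13, which differed little, and genes too dim for a measured difference. Averaged over the 4 conditions, S100A6, S100P and S100A4 were lower by more than 2-fold, S100P with signals partly below background, and S100A10 and S100A11 were higher by more than 2-fold. S100A13 differed by less than 2-fold, and the fitted averages of S100A8 and S100A16, which were often below background, were under 2-fold as well. These 5 of 8 tested members stand beside 5.78% of all tested probes past 2-fold, 1.63% higher and 4.15% lower, and nothing is read from that difference since the members were listed with it known.

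S100A6 had log2 signals of 10.78 and 10.57 in the untreated control at 6 h, 10.70 and 10.28 after 6 h of bortezomib, 10.64 and 10.74 in the untreated control at 24 h, and 11.22 and 10.75 after 24 h of bortezomib. In LP-1-cIAP2-eGFP the values in the same order were 8.25 and 8.46, then 8.49 and 8.58, then 8.35 and 8.61, then 8.86 and 9.61. The lowest control array, at 10.28, lay 0.67 above the highest LP-1-cIAP2-eGFP array, so the lines did not overlap. In untreated cells the log2 difference was -2.32 at 6 h and -2.21 at 24 h, and in treated cells it was -1.96 and -1.75, with an average of -2.06. The arrays of either line did not overlap those of the other for 3.2% of all tested probes.

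S100A4 was also lower in LP-1-cIAP2-eGFP. Its log2 signals were 8.30 and 8.15 in the untreated control at 6 h, 8.48 and 8.18 after 6 h of bortezomib, 8.60 and 8.72 in the untreated control at 24 h, and 9.85 and 9.94 after 24 h of bortezomib. In LP-1-cIAP2-eGFP they were 6.99 and 7.42, 7.03 and 6.58, 6.68 and 7.59, and 7.99 and 8.21. Within each of the 4 conditions both arrays of LP-1-cIAP2-eGFP were below both control arrays, and the average log2 difference was -1.46. The lines came together only across conditions, where the highest LP-1-cIAP2-eGFP array, with bortezomib at 24 h, passed the lowest control array by 0.06.

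S100P, a member known from placenta and carcinomas that binds ezrin and IQGAP1, was dim. Its log2 signal ran from 5.72 to 7.07 in the control, with a median of 6.11, and from 3.09 to 5.84 in LP-1-cIAP2-eGFP, with a median of 4.77. The fitted average log2 difference was -1.69, but it includes 4 LP-1-cIAP2-eGFP arrays that were not above background, and with normexp background correction it was -0.57, less than 2-fold. The lines overlapped by 0.13. In untreated cells at 6 h neither LP-1-cIAP2-eGFP array was above background, and the control was at least 2.00-fold higher. For that bound each dim array was set to the higher of its own value and the lowest signal called above background on it.

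S100A10 was higher in LP-1-cIAP2-eGFP. Its log2 signals were 13.37 and 13.60 in the untreated control at 6 h, 13.50 and 13.69 after 6 h of bortezomib, 13.95 and 13.93 in the untreated control at 24 h, and 13.95 and 13.85 after 24 h of bortezomib. In LP-1-cIAP2-eGFP they were 14.52 and 14.67, 15.02 and 15.27, 15.24 and 15.11, and 15.93 and 15.78. Every LP-1-cIAP2-eGFP array lay above every control array, with a gap of 0.57 between the nearest ones. The log2 difference averaged 1.47 and ran from 1.11 untreated at 6 h to 1.96 with bortezomib at 24 h.

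S100A11 behaved likewise. Its brighter probe read 11.88 and 12.49 in the untreated control at 6 h, 11.73 and 12.03 after 6 h of bortezomib, 12.81 and 13.02 in the untreated control at 24 h, and 12.22 and 12.55 after 24 h of bortezomib. The LP-1-cIAP2-eGFP arrays lay between 13.78 and 14.27, with a median of 13.95, and none overlapped the control. The average log2 difference was 1.64, and a second probe of the gene gave 1.70. The SD over the 8 arrays was 0.45 in the control and 0.18 in LP-1-cIAP2-eGFP, so the level of this gene varied less among conditions in the line where it was high.

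S100A13, which takes part in the release of fibroblast growth factor 1 from stressed cells, did not separate the lines when all conditions were pooled. Its log2 signal was 12.39 ± 0.28 (SD, n = 8) in the control and 12.21 ± 0.35 (SD, n = 8) in LP-1-cIAP2-eGFP, and the ranges overlapped. The average log2 difference of -0.18 was smaller than either SD, although these SDs include the differences between conditions. Within 3 of the 4 conditions, all but bortezomib at 24 h, both LP-1-cIAP2-eGFP arrays of S100A13 were below both control arrays. S100A16, above background on only 3 arrays, also had 3 conditions without overlap between the lines. The share of all tested probes with such a count was not determined, so nothing is read from it. The fitted averages of S100A8 (-0.34) and S100A16 (0.17) lay within SDs of at least 0.59 for both genes in both lines and are not measured folds. Their differences in single conditions went both ways. S100A16 exceeded background in both replicates only of untreated LP-1-cIAP2-eGFP at 24 h, with log2 signals of 5.34 and 4.58. It was tested only through that condition, so no difference between the lines is read from it there.

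**Figure D1:**
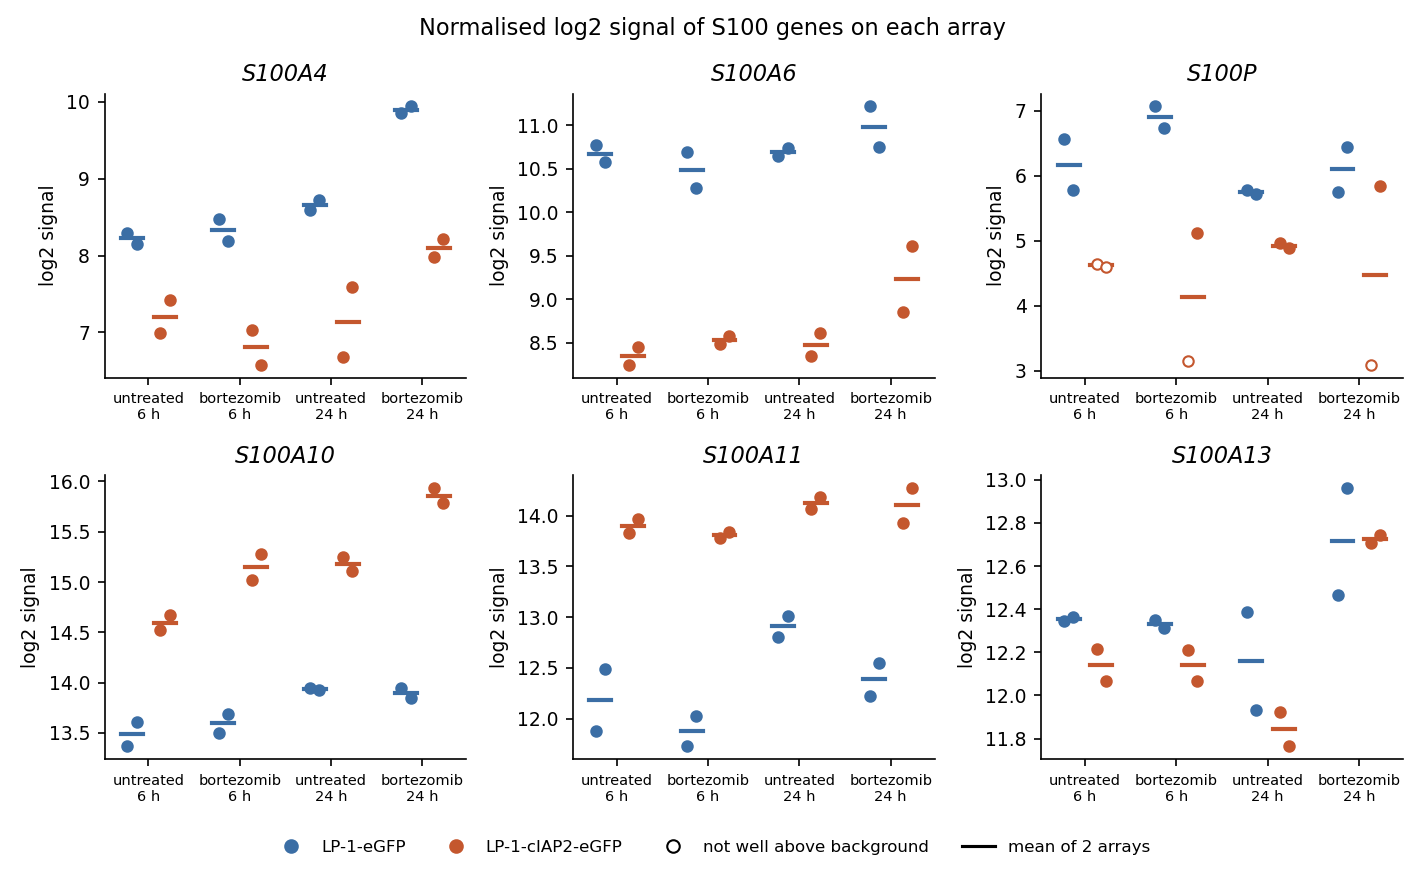
Normalised log2 signal of 6 S100 genes on each of the 16 arrays, by treatment and time, with both replicates of a condition as points and their mean as a line. Control points lie above LP-1-cIAP2-eGFP points within every condition for S100A4 and S100A6 and below them for S100A10 and S100A11, and open points mark 4 LP-1-cIAP2-eGFP arrays on which S100P was not well above background.

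The glass slides on which the arrays were hybridised were not balanced, with 6 LP-1-cIAP2-eGFP and 2 control arrays on slide 1. Within a slide, the log2 difference of S100A6 was -2.33 and -2.32 in untreated cells at 6 h on slides 1 and 2, -2.08 in untreated cells at 24 h on slide 2 and -1.98 with bortezomib at 24 h on slide 1. S100A10 was higher in LP-1-cIAP2-eGFP by 0.92 to 1.91 and S100A11 by 1.27 to 2.08 in the same 4 comparisons, and S100A4 was lower, at -0.87 to -1.75. In these comparisons the differences were thus present between arrays of the same slide. With bortezomib at 6 h both LP-1-cIAP2-eGFP arrays were on slide 1 and both control arrays on slide 2. Line and slide cannot be told apart in that condition. In fits that each lacked 1 array, the average difference stayed between -2.16 and -1.98 for S100A6 and between 1.43 and 1.50 for S100A10.

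**Figure D2:**
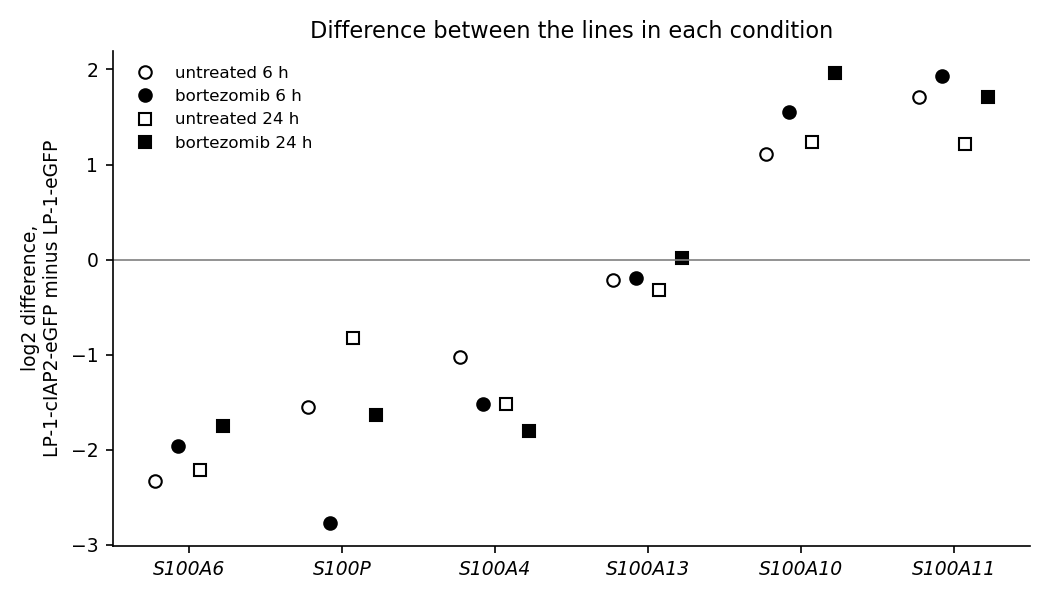
Difference in log2 signal between LP-1-cIAP2-eGFP and the control in each of the 4 conditions, as the difference between means of 2 arrays. The 4 points of S100A6, S100P and S100A4 lie below 0 and those of S100A10 and S100A11 above 0, whereas those of S100A13 lie between -0.32 and 0.01.

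Of the members past 2-fold that lie in the cluster on chromosome 1, S100A10 and S100A11 (higher) lie at one end. S100A6 and S100A4 (lower) lie near the other. In the RefSeq order of protein-coding genes, S100A10 and S100A11 are neighbours and open the cluster, and S100A6, S100A4, S100A13 and S100A1 lie near its other end, with 47 other protein-coding genes between the first and the last S100 gene. S100P lies apart on chromosome 4. S100A13 differed little between the lines (-0.18). S100A1 differed by -1.36 by its brighter probe. The dimmer probe of S100A1 read 5.01 in LP-1-cIAP2-eGFP and 4.92 in the control, both untreated at 24 h. S100A5, which lies between S100A6 and S100A4 and was above background on all arrays, differed by -0.23 between the lines, and S100A3, the next gene after S100A4, by 0.24 with 10 arrays above background. The 10 genes on the near side of the cluster had a median difference of -0.06 among the 9 tested, and the 10 on the far side a median of -0.05, with none of the 19 past 2-fold. Of the 31 other genes tested within the cluster, 5 were more than 2-fold higher and 1 was more than 2-fold lower, beside 1.63% and 4.15% of all tested probes. Trichohyalin (TCHH), a hair follicle protein with an S100-like end, was higher by 1.33 (standard error 0.17). LCE1E, a cornified envelope gene, had a fitted difference of 1.01 with a standard error of 0.60, so its direction is uncertain. The peptidoglycan recognition gene PGLYRP4, above background on 9 arrays, had a fitted difference of -2.03. The small proline-rich genes SPRR2A, SPRR2E and SPRR2F were higher by 3.55, 3.23 and 2.65, but they are near-identical copies and a probe of one may read another.

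**Figure D3:**
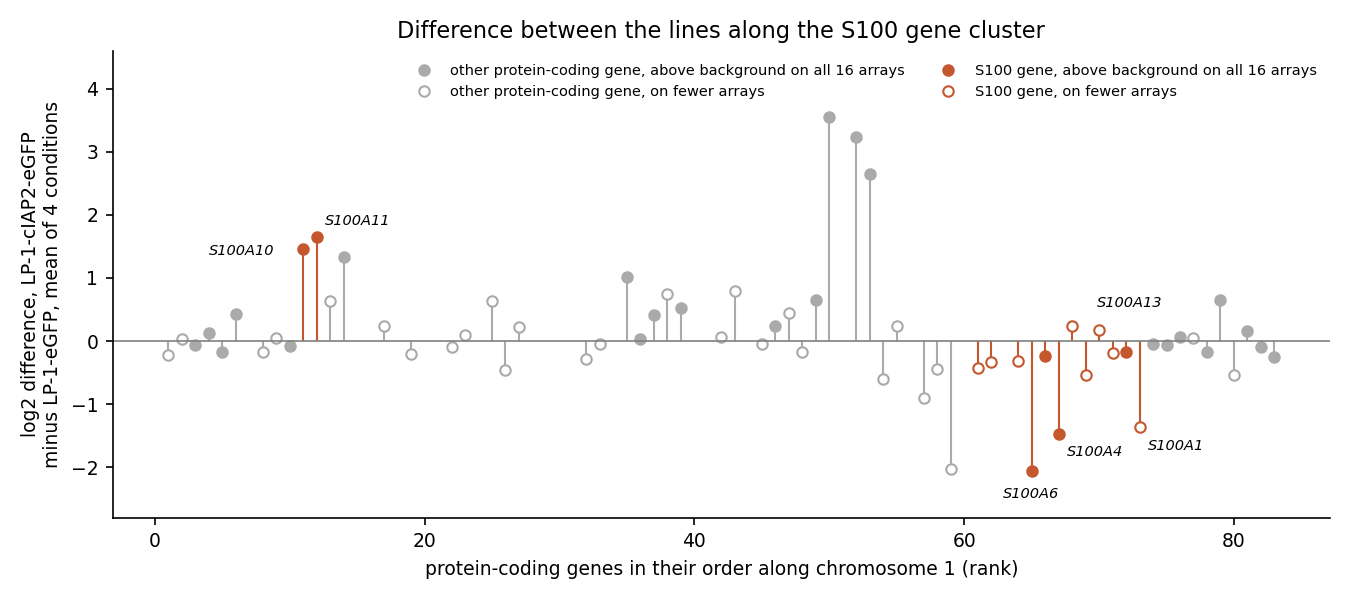
Average log2 difference between LP-1-cIAP2-eGFP and the control for tested protein-coding genes in their order along the S100 cluster and 10 genes on either side, with S100 genes in colour and open points for genes above background on fewer than 16 arrays. S100A10 and S100A11 stand above 0 at one end, and S100A6, S100A4 and S100A1 (by its brighter probe) below 0 at the other. The flanking genes lie between -0.53 and 0.65.

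The genes whose profile over the 16 arrays was most like that of S100A6 were looked for among 9682 genes above background on all arrays. The 5 highest Pearson correlations were those of PLEKHO1 (0.985), GCC2 (0.983), ISG15 (0.977), OPLAH (0.976) and SDSL (0.975), and each of the 5 was lower in LP-1-cIAP2-eGFP, with average differences from -0.96 (GCC2) to -4.66 (SDSL). These values are a description over arrays that fall into 2 separate lines. When each line was centred on its own mean, GCC2 was the only one of the 5 still among the 5 highest, at 0.886. Among the 5 members above background on all arrays, centred in this way, S100A6 went most closely with S100A4 (0.70) and S100A10 (0.65) and least with S100A11 (0.22).

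The rule for the members used the difference between the lines and not the response to bortezomib, although the list was made with earlier results of these data known. The response was tested with limma over all 33731 tested probes, with Benjamini-Hochberg adjustment and calls at an adjusted p under 0.05. At 24 h, S100A4, S100A13 and S100A10 rose when the response was averaged over the lines, and no member fell. Of all tested probes 34.8% were called in this comparison, 15.1% higher and 19.7% lower, so that 3 of 8 members is close to the share of the array as a whole. The median log2 difference of the 8 members was 0.13, and 0.32 without S100A16, which was not above background on any treated array at 24 h, against -0.09 over all tested probes. In the control 1 member was called, S100A4, beside 21% of probes (9.81% higher), and in LP-1-cIAP2-eGFP 3 were called, S100A4, S100A10 and S100A13, beside 28.6% (11.1% higher).

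S100A4 had the largest rise. In the control it went from 8.60 and 8.72 untreated to 9.85 and 9.94 with bortezomib, a log2 difference of 1.24 (standard error 0.29, adjusted p = 0.013, limma). In LP-1-cIAP2-eGFP it went from 6.68 and 7.59 to 7.99 and 8.21, a difference of 0.96 (standard error 0.29, adjusted p = 0.034, limma). Treated and untreated arrays did not overlap in either line, and the average rise was 1.10 (standard error 0.21, adjusted p = 0.0022, limma), which is 2.14-fold. With array weights the average was not called (adjusted p = 0.072). After treatment the LP-1-cIAP2-eGFP arrays were still below those of the treated control. The rise within each line rests on few arrays. Without 1 of the 4 control arrays at 24 h the adjusted p in the control was 0.0545 to 0.0661. In LP-1-cIAP2-eGFP the call was lost in 9 of the 16 fits that lacked an array, in 2 of 9 other settings (adjusted p = 0.062 with no filter on signal and 0.49 with array weights), and the difference without untreated replicate 1 at 24 h was 0.50 (adjusted p = 0.24).

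S100A13 rose by 0.72 on average (standard error 0.14, adjusted p = 0.0027, limma). In LP-1-cIAP2-eGFP it went from 11.92 and 11.76 untreated to 12.71 and 12.75 with bortezomib, a difference of 0.88 (adjusted p = 0.0084, limma). In the control it went from 12.39 and 11.93 to 12.47 and 12.96, a difference of 0.56 that missed the threshold (adjusted p = 0.079, limma). With a control array at 24 h left out this value ran from 0.31 to 0.81, and it was called without untreated or treated replicate 1 (limma adjusted p = 0.037 and 0.043). Treated arrays lay above untreated ones in both lines, and in the control the nearest of them were 12.47 and 12.39. The value in LP-1-cIAP2-eGFP was 0.64 with each array scaled to its 75th percentile and 0.80 without untreated replicate 2 of that line at 24 h, and neither passed the threshold (limma adjusted p = 0.0585 and 0.0675), nor did it with array weights (adjusted p = 0.197).

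S100A10 differed by 0.68 in LP-1-cIAP2-eGFP (standard error 0.15, adjusted p = 0.0089, limma), where it was already high, and by -0.04 in the control (adjusted p = 0.91, limma). The difference between these responses was 0.72 with a 95% confidence interval of 0.23 to 1.21, and it was not called over all probes (unadjusted p = 0.0083, adjusted p = 0.45, limma). The average of 0.32 barely passed the threshold (adjusted p = 0.046), and it no longer did when any 1 of 15 of the 16 arrays was left out (adjusted p of 0.052 to 0.15 in those fits). Without untreated LP-1-cIAP2-eGFP replicate 2 at 24 h, the value in that line was 0.62 (adjusted p = 0.073). With each array scaled to its 75th percentile it was 0.46 in that line (adjusted p = 0.155) and 0.11 on average (adjusted p = 0.63).

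S100A6 had a difference of 0.52 on average, with an adjusted p of 0.056 that missed the threshold. It was 0.76 in LP-1-cIAP2-eGFP, where the arrays were 8.35 and 8.61 untreated and 8.86 and 9.61 treated, and 0.29 in the control (adjusted p = 0.060 and 0.55, limma). Without the dim array the value in LP-1-cIAP2-eGFP was 1.14 (adjusted p = 0.0089), and without the second treated array it was 0.38 (adjusted p = 0.22), so it depends on which of the treated arrays is kept. S100A11 had a difference of -0.27 on average, -0.52 in the control and -0.02 in LP-1-cIAP2-eGFP, and none of these was called (adjusted p = 0.23, 0.15 and 0.95, limma). The intervals of the dim members were wide, for instance -1.35 to 1.24 for S100P and -1.26 to 0.93 for S100A8, so a 2-fold change of either could have gone undetected. S100A16 was above background in both replicates only of untreated LP-1-cIAP2-eGFP at 24 h, so it was tested only through the condition in which it was highest, and on none of the 4 treated arrays at 24 h. Its fitted difference of -1.26 (interval -2.45 to -0.07, limma adjusted p = 0.097) is therefore neither a measured fold nor evidence of a fall.

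At 6 h no member was called in the average of the lines, beside 5.93% of all tested probes, nor in the control, beside 1.95%, or in LP-1-cIAP2-eGFP, beside 1.09%. Of the 8 members 1, S100A10, had an unadjusted p under 0.05 in the average, with a log2 difference of 0.33 (limma adjusted p = 0.13). Values for S100A4 and S100A13 at 6 h were -0.15 and -0.01, with intervals of -0.61 to 0.32 and -0.32 to 0.30, so the 24 h rise of S100A4 was outside its interval at 6 h. In treated cells, 24 h was compared with 6 h over both lines. S100A4 was higher at 24 h by 1.43 (adjusted p = 7.0e-04), S100A6 by 0.60 (adjusted p = 0.040), S100A10 by 0.51 (adjusted p = 0.0067) and S100A13 by 0.49 (adjusted p = 0.028), so 4 of 8 members were called, all higher, beside 27.9% of probes called and 12% called higher. The values of S100A6 and S100A13 no longer passed when some single arrays were left out (13 of the 16 for S100A6, with adjusted p up to 0.14, and 6 of the 16 for S100A13, up to 0.090). With each array scaled to its 75th percentile S100A10 was at 0.22 and S100A13 at 0.23, and neither was called (adjusted p = 0.34 and 0.32), nor were they with array weights (adjusted p = 0.096 and 0.15). In untreated cells no member was called, beside 0.0089% of probes, and 2 had an unadjusted p under 0.05. These were S100A10, which was higher at 24 h by 0.52, and S100A11, by 0.48 (adjusted p = 0.44 and 0.84, limma). For S100A10 the change with time was thus of like size with and without the drug. Its unadjusted p was 0.0010 in treated and 8.6e-04 in untreated cells (limma). The difference between the changes with time in treated and untreated cells was not tested. The bortezomib comparison at 24 h and the comparison of times use the same treated arrays.

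The difference in response between the lines was tested for each member at both times and was called for none, with 1 member at 24 h, S100A10, and none at 6 h at an unadjusted p under 0.05. Over all tested probes 0.0712% were called at 24 h and 0.00297% at 6 h. At 24 h the interval of the difference was -1.20 to 0.64 for S100A4, -0.38 to 1.30 for S100A6 and -0.30 to 0.96 for S100A13.

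**Figure D4:**
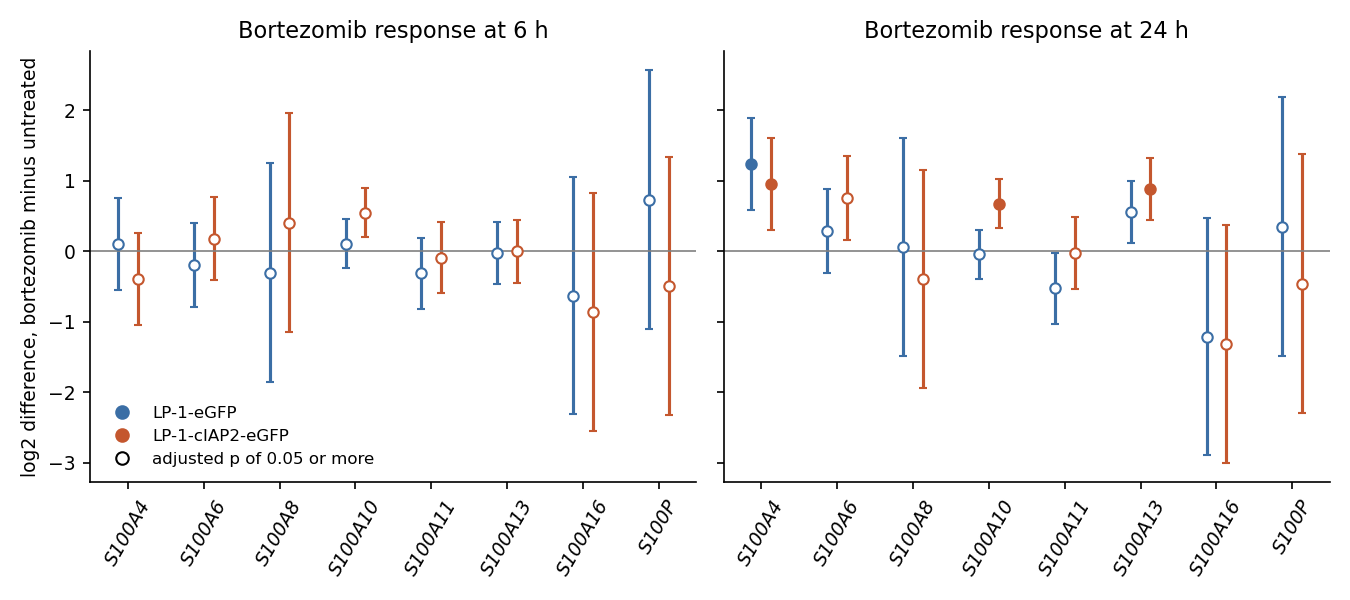
Difference in log2 signal between bortezomib-treated and untreated cells at 6 h and at 24 h for the 8 tested members, with 95% confidence intervals from limma and filled points where the adjusted p was under 0.05. At 24 h the filled points are S100A4 in both lines and S100A10 and S100A13 in LP-1-cIAP2-eGFP, no point is filled at 6 h, and the intervals of S100A8, S100A16 and S100P are wide.

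Plasma cell markers were lower after bortezomib for 24 h. Of the 9, 7 fell, among them SDC1 by 2.46 and MZB1 by 2.01 on the log2 scale, and 1, SLAMF7, rose by 0.62, beside the 19.7% of all tested probes called lower and 15.1% called higher. The summed signal of the 9, of which XBP1 was the brightest, was between 18.25 and 18.60 on the log2 scale on the 8 untreated arrays and between 16.93 and 17.26 on the treated arrays at 24 h. Of 5 epithelial markers KRT18 rose by 0.62 (adjusted p = 0.014), and their summed signal, of which KRT8 was the brightest part, was between 10.11 and 10.85 untreated and between 11.01 and 11.74 treated at 24 h, with CDH1 below background throughout. Of 10 myeloid markers 4 were tested and none was called, and of 3 fibroblast markers COL1A1 was called, at a fitted -1.22 with 1 of its 4 treated arrays at 24 h above background. The 3 T cell markers were tested and none was called. Their summed signal, of which CD2 was the brightest, was 11.51 on the dim array, replicate 1 of treated LP-1-cIAP2-eGFP at 24 h, against values between 6.34 and 8.45 on all remaining arrays, its replicate included. On the dim array CD2 was at 11.49, and CD3D and CD3E were not above background. Markers also differed between the lines, averaged over the conditions. In LP-1-cIAP2-eGFP 4 of the 9 plasma cell markers were called higher and 1 lower. Of 3 tested epithelial markers 1 was called lower, as was 1 of the 3 T cell markers. Over all tested probes 6.26% were called higher and 9.84% lower. The part of the markers in the changes and line differences of the S100 genes was not tested.

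Among the 12 other S100 genes listed, 8 were tested, 2 rose with bortezomib at 24 h and none fell, beside 15.1% and 19.7% of all tested probes. S100A2, a member known from epithelial cells, went from 5.13 and 5.38 to 7.94 and 8.02 in the control, a log2 difference of 2.72 (adjusted p = 7.4e-04, limma). In LP-1-cIAP2-eGFP it went from 5.43 and 5.38 to 5.93 and 7.39, where the lower value was not well above background, a difference of 1.26 (adjusted p = 0.032). The difference between the responses, -1.46, was not called (adjusted p = 0.56). S100A1, a regulator of calcium handling in muscle, rose by 1.98 on average by its brighter probe (adjusted p = 2.6e-04, limma), from 6.54 and 6.13 to 8.34 and 8.46 in the control. The same probe went from 4.41 and 5.06 to 6.50 and 6.74 in LP-1-cIAP2-eGFP, where the 6.50 was not well above background. A second, dimmer probe of S100A1, above background on 7 arrays and on no treated array at 24 h, did not show a rise. It was tested only through untreated conditions and gives no measured fold at 24 h, and with both probes averaged the value was 0.20 (adjusted p = 0.72), so the rise rests on the brighter probe. In untreated cells at 24 h the brighter probe of S100A1 differed by -1.60 between LP-1-cIAP2-eGFP and the control, and the second probe by 0.09.

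The partners of the S100 proteins were followed through the same 24 h comparison. Of 12 annexins, 9 were tested, 4 rose and 2 fell, beside 15.1% of all tested probes higher and 19.7% lower. ANXA1, the calcium-dependent membrane binder that pairs with S100A11, had by far the largest change. It went from 6.72 and 6.45 to 14.55 and 14.40 in the control and from 6.09 and 5.62 to 14.61 and 14.75 in LP-1-cIAP2-eGFP, an average log2 difference of 8.36 (standard error 0.22, adjusted p = 2.6e-08, limma), while S100A11 itself was not called. At 6 h the treated arrays of ANXA1 were at 9.36 and 8.73 in the control and at 7.02 and 7.38 in LP-1-cIAP2-eGFP. ANXA2, the partner of S100A10, rose by 0.96 (adjusted p = 8.1e-05), from 15.49 and 15.47 to 16.65 and 16.61 in the control and from 15.81 and 15.84 to 16.48 and 16.72 in LP-1-cIAP2-eGFP. ANXA2 differed by 0.15 between the lines, where S100A10 differed by 1.47. ANXA7 rose by 0.65 and ANXA5 by 0.50, and ANXA3 and ANXA4 fell by 1.62 and 1.05 on the log2 scale. ANXA11, a partner of S100A6, differed by 0.14 with bortezomib and was not called (adjusted p = 0.35). Between the lines it differed by -0.89. Of the 9 tested annexins, 5 had a positive and 4 a negative average difference between the lines, with a median of 0.01, and nothing is read from that of ANXA11.

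Of 14 other partners, 10 were tested, 5 rose and 4 fell, against the same 15.1% and 19.7% over all tested probes. The partners of S100A6 listed here include SUGT1, a co-chaperone that rose by 1.42 (adjusted p = 7.5e-05) and CACYBP, the calcyclin-binding protein, which rose by 0.57 (adjusted p = 0.0030). With each array scaled to its 75th percentile the value of CACYBP was 0.32 and was no longer called (adjusted p = 0.26). The scaffold gene IQGAP1 rose by 1.04, the membrane linker ezrin (EZR) by 0.86 and non-muscle myosin heavy chain MYH9, the target of S100A4, by 0.54. AHNAK, a giant scaffold held at the membrane by S100A10 and annexin A2, fell by 1.12 (adjusted p = 7.6e-04), as did S100PBP, a binding protein of S100P, by 1.52 (adjusted p = 0.0019), SYT1 by 1.97 and PLGRKT, a plasminogen receptor, by 0.89 on the log2 scale. Partners of a single member thus moved in opposite directions, with ANXA2 up and AHNAK down beside S100A10. The second probe of SYT1, a dimmer one, rose by 0.83 (adjusted p = 0.018), so the direction of that gene depends on the probe. With both probes averaged SYT1 was at -0.57 and was not called (adjusted p = 0.24). Its first probe gave -1.14 with normexp, -1.27 without the dim array and -2.68 without the second array of that condition, all still called.

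Of 10 receptors and adaptors, 8 were tested, 1 rose and 4 fell, again beside 15.1% and 19.7%. RAGE (AGER) differed by -0.63 and missed the threshold (adjusted p = 0.056, limma). TLR4, the receptor of S100A8 and S100A9, was above background on 9 of 16 arrays. Its fitted difference of 0.55 (adjusted p = 0.28, limma) is not a measured fold. MYD88, the adaptor below TLR4, fell by 1.35 (adjusted p = 4.2e-04), MCAM by 0.62, BSG by 0.62 and NPTN by 0.46 on the log2 scale, and the formin DIAPH1, which binds the tail of RAGE, rose by 0.54, although its second probe gave 0.01 (adjusted p = 0.97) and the 75th percentile scaling of its first gave 0.26 (adjusted p = 0.25). With normexp background correction it was 0.24 (adjusted p = 0.487). Of the 7 genes of S100-fused proteins, 4 were tested, none rose and 2 were called lower. TCHH, above background on all arrays, fell by 1.97, and CRNN, above background on 10 of 16 arrays and on 1 of the 4 treated ones at 24 h, had a fitted difference of -0.98 that is not a measured fold. For each list the median log2 difference was set beside the median of -0.09 over all tested probes. It was 0.14 for the annexins, 0.45 for the other partners, -0.54 for the receptors, 0.16 for the other S100 genes and -0.38 for the S100-fused genes.

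**Figure D5:**
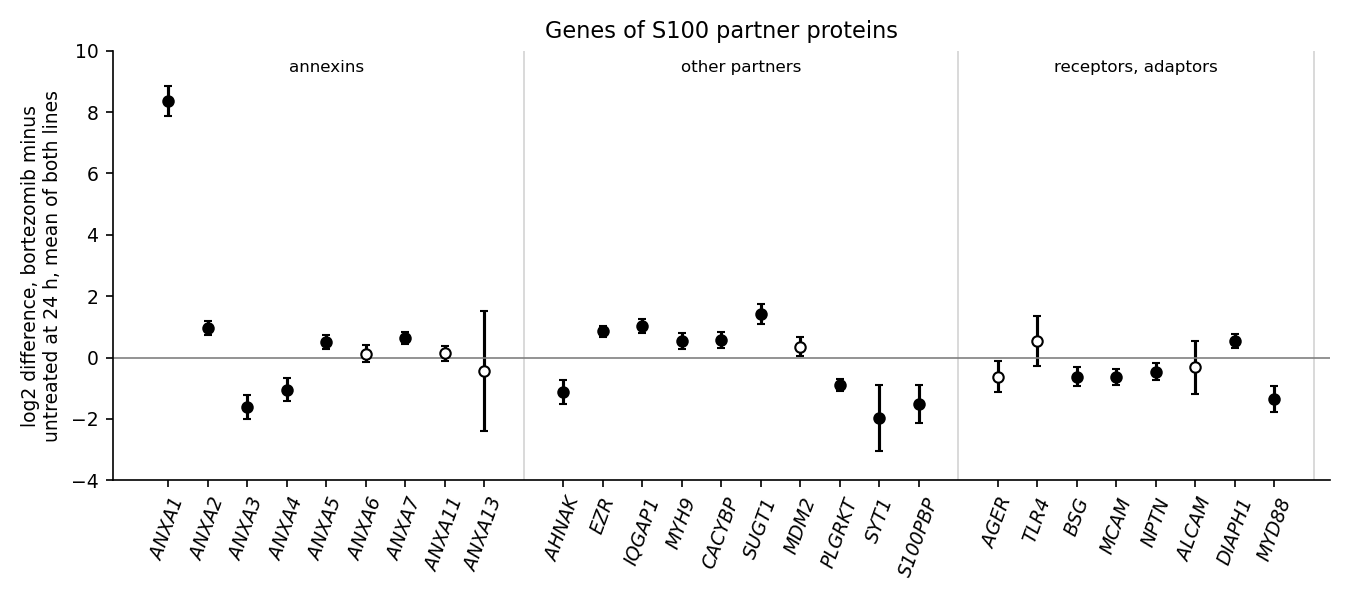
Difference in log2 signal between bortezomib-treated and untreated cells at 24 h, averaged over the lines, for all tested genes of the lists of annexins, other S100 partners and receptors, with 95% confidence intervals from limma and filled points where the adjusted p was under 0.05. ANXA1 stands at 8.36, all other genes shown lie between -1.97 and 1.42, and open points, among them ANXA6, ANXA11, ANXA13, AGER and TLR4, are genes that were not called.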

How the data were processed

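RNA of 16 LP-1 cultures was hybridised in a single colour to Agilent SurePrint G3 Human arrays. The deposited scanner files hold intensity values that the Feature Extraction software had background-corrected, not normalised between arrays. The authors also deposited log2 values that were quantile normalised in GeneSpring and, as the values show, centred on the median of each probe. That table was used as an alternative, and the direction and scale of each column were checked against its own array (r of at least 0.998 across probes).

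Control spots and spots marked as outliers were left out, repeated spots were averaged as log2 values, and arrays were quantile normalised and fitted with limma 3.58.1 (R 4.3.3), each of 8 conditions with its own mean. Of 50599 gene probes, 33731 exceeded background in both replicates of a condition and were tested. 28170 of the gene probes were named through their RefSeq accession and a GRCh38.p14 gene table. A gene is reported by the probe with the highest mean signal. The fit was checked on simulated data. No counts underlie these values, and the number of arrays, the spread between replicates and the signal over background limit the precision.

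The members and lists were chosen with earlier results of these data known. Named genes are the 9 members, other S100 genes, S100-fused genes, annexins, partners, receptors, neighbours on chromosome 1, and the 5 genes most like S100A6. Some listed genes are not reported here. The alternatives were scaling to the 75th percentile, normexp (offset 50), the authors' values, no signal filter, a filter on all 16 arrays, replicate or slide blocks, array weights, a 2-fold rule, averaged probes and each array left out. With an array left out, its replicate stood alone and took the spread of the remaining conditions.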

Additional observations from a re-analysis of the deposited data

How the results depend on the processing

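The line differences of the 5 members past 2-fold kept their direction under all settings in which they were tested. S100P was not tested when only probes above background on all 16 arrays were kept. Members past 2-fold numbered 5 in the main analysis, 4 with normexp background correction, 4 with that filter, and 5 in every fit with an array left out. Normexp brought S100A6 to -1.74, S100A4 to -1.01 and S100P to -0.57. The smaller line differences of S100A8 and S100A16 crossed 0, S100A8 reaching 0.0036 with 75th percentile scaling and S100A16 ranging from -0.08 to 0.42 with arrays left out. Of the called results that were followed through these settings, none reversed. Not every called gene named above was followed, and the second probe of SYT1 went the opposite way to its first. Counts of members called with bortezomib at 24 h moved more. In the control the count of 1 became 2 with normexp and with only probes above background on all arrays, and was 0 to 1 with arrays left out (0 without untreated or treated replicate 2 at 24 h, while without replicate 1 of either S100A13 was called and S100A4 was not). In LP-1-cIAP2-eGFP the count of 3 became 1 with 75th percentile scaling, 5 with normexp, and 0 with array weights or when more than 2-fold was also required. It was 1 to 3 with arrays left out (1 without untreated replicate 2 at 24 h). The average over the lines, 3 members, became 5 with normexp, 1 with array weights and 1 with the 2-fold rule, and 2 to 4 with arrays left out. In that average the call of S100A13 held in the 9 settings without the 2-fold rule, which it did not pass (adjusted p of 5.3e-04 to 0.034), that of S100A4 in all but array weights (adjusted p = 0.072), and that of S100A10 was lost in 6 of 9 settings and in 15 of 16 fits with an array left out. S100A6, not called, was called with normexp (0.58, adjusted p = 0.0062), with only probes above background on all arrays (adjusted p = 0.023), without the dim array (0.72, adjusted p = 0.0066) and without treated control replicate 2 at 24 h (0.64, adjusted p = 0.042), but it fell to 0.34 (adjusted p = 0.10) without treated LP-1-cIAP2-eGFP replicate 2 at 24 h. At 6 h the count of 0 became 1 with only probes above background on all arrays and with array weights. The difference between the responses at 24 h had 0 members called, and 0 to 1 with arrays left out, the 1 being S100A10 without treated LP-1-cIAP2-eGFP replicate 2 (0.79, adjusted p = 0.027). For 24 h against 6 h of bortezomib the 4 members became 1 with 75th percentile scaling, array weights or the 2-fold rule and 2 without a signal filter, and 2 to 4 with arrays left out, 2 without either 6 h replicate of treated LP-1-cIAP2-eGFP, untreated control replicate 1 at 6 h or treated control replicate 2 at 6 h. Scaling to the 75th percentile moved the median of all tested probes by 0.37 in the 24 h response of LP-1-cIAP2-eGFP and by 0.22 in the average. The cause of these changes was not tested. The deviations of replicates that bear the same number were weakly correlated at most (over 28 pairs of conditions from -0.11 to 0.24, median 0.04, 7 of them over 0.1), and no label ties a number to a shared culture or day, so the numbers were not taken as pairs. With the replicate block the control count at 24 h was 2, S100A11 joining with -0.52 (adjusted p = 0.036), and the count over time was 5. Signal over background limits S100P, S100A8, S100A9 and S100A16.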

Other observations

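Some other genes of the cluster on chromosome 1 and its flanks were called with bortezomib. Of the 50 neighbours tested, 7 were called higher and 9 lower at 24 h, averaged over the lines. Over all tested probes 15.1% were called higher and 19.7% lower. Several of the lower calls were of genes often below background, with SPRR1B and LORICRIN above it on 4 of 16 arrays, LCE3D on 5 and CRNN on 10. Their fitted values are not measured folds. Of the 23 neighbours above background on all 16 arrays, 7 were called higher and 3 lower. The cornified envelope genes SPRR2A, SPRR2E and SPRR2F, which were also higher in LP-1-cIAP2-eGFP, rose by 3.51, 3.04 and 2.52 on the log2 scale, with the reserve that their probes may read one another's transcripts. Trichohyalin (TCHH) fell by 1.97. PGLYRP4, above background on only 9 of 16 arrays, was called at a fitted -1.20, which is not a measured fold. Within the S100 run itself, S100A5 and S100A3 had differences of 0.43 and 0.99 that did not pass the test (limma adjusted p = 0.28 and 0.14).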
